A study of Homo sapiens with 10 samples.

Results

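The JUN family consists of JUN, JUNB and JUND, 3 of the 20327 genes in each deposited table. The 3 genes were taken by symbol after their Ensembl identifiers had been matched to gene names, and none was chosen by its measured level. RNA was sequenced from hTERT RPE-1, a telomerase-immortalised line that came from the pigmented layer behind the human retina and is labelled wild type. All cells, controls included, had first been kept for 48 h in medium with 0.1% serum. In the 30 min experiment, 3 libraries came from cells given the vehicle DMSO for 30 min and 3 from cells given merbarone at 200 µM for 30 min. In the 2 h experiment, 2 libraries came from untreated cells and 2 from cells given merbarone at 200 µM for 2 h, so that its control had received no vehicle. Merbarone is a catalytic inhibitor of topoisomerase II, the enzyme that passes one DNA duplex through another and relieves supercoils. The series asks how DNA supercoiling bears on promoter-proximal pausing of RNA polymerase II. Every library came from 1 cell line and 1 dose.

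JUN proteins are basic leucine zipper transcription factors. They pair with one another or with FOS, ATF and MAF proteins to form AP-1, which binds short DNA sites near genes of growth, matrix remodelling and stress. FOS proteins need a JUN partner to bind DNA well, whereas JUN proteins can also pair among themselves. JUN, the founding member, is activated by JNK kinases that phosphorylate its N-terminal domain, and its protein acts on its own promoter. JUNB is an immediate-early gene like JUN and can restrain JUN activity in many settings. JUND is the member that resting cells typically express most steadily. JUN and JUNB are textbook immediate-early genes: serum, growth factors or stress raise their transcription within minutes without new protein synthesis, and the RNAs are short-lived.

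In the GRCh37 annotation used here, JUN (ENSG00000177606) lies at chr1:59242517-59249720 on the minus strand. Its coding transcripts have 1 exon (59246463 to 59249719), and a further transcript with 4 exons, annotated as a target of nonsense-mediated decay, extends the gene. JUNB (ENSG00000171223) lies at chr19:12902300-12904129 on the plus strand and has 1 exon. JUND (ENSG00000130522) lies at chr19:18390504-18392432 on the minus strand, with a transcript of 1 exon and a shorter one of 2. The lengths behind the deposited values were 3321 bp for JUN, 1815 bp for JUNB and 1870 bp for JUND. These are close to the lengths of the 1-exon transcripts, so the members' RPKM values (reads divided by gene length and by library depth) can be set side by side per length. GC content of the exons was 55.0% for JUN, 64.9% for JUNB and 69.9% for JUND.

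The 250 bases upstream of each start site are shown because the 3 genes are read against one another below and their promoters differ. They come from RefSeq's promoters on GRCh38.p14, where 3 of 3 genes matched, and are given 5′ to 3′ on the gene's own strand. The windows are chr1:58784048-58784297 (minus) for JUN, chr19:12791236-12791485 (plus) for JUNB and chr19:18281623-18281872 (minus) for JUND. Capitals mark matches, on either strand, to the CCAAT box (CCAAT), the TATA box (TATAA), the cyclic AMP response element (TGACGTCA), the variant AP-1 site (TGACATCA) and the MEF2 site.
JUN: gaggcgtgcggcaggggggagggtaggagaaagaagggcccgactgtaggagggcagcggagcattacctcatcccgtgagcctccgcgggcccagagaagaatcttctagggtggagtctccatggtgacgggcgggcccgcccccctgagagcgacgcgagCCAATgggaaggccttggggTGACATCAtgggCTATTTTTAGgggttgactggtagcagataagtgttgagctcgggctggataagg
JUNB: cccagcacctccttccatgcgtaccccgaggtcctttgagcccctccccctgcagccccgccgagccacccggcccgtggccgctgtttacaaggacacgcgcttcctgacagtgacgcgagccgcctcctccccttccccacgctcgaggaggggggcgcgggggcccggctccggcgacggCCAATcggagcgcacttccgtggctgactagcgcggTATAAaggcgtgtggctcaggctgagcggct
JUND: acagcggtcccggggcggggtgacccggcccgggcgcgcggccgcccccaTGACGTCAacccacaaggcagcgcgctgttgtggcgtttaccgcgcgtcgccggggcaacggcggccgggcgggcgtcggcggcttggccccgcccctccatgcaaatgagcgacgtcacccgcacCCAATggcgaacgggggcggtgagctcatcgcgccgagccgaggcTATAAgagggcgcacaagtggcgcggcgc

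The JUN window held the variant AP-1 site starting 67 bases upstream of the start, a CCAAT box at 87 and a MEF2 site at 55. No TATA box letters were in its window. The JUNB window held a CCAAT box at 67 bases upstream and a TATA box at 31. The JUND window held a cyclic AMP response element at 200 bases upstream, a CCAAT box at 74 and a TATA box at 29. The GC box (GGGCGG on either strand, not in capitals) matched 2 times in the JUN window and 5 times in the JUND window. Neither the AP-1 site TGACTCA nor the CArG box, the site of serum response factor, matched in any of the 3 windows. Among 35116 promoter windows of the same length, 32.0% held CCAAT, 18.9% TATAA and 42.6% the GC box. The rarer sites were TGACTCA (4.20%), the MEF2 site (2.80%), TGACATCA (2.37%), TGACGTCA (1.65%) and the CArG box (1.16%). None of these motifs overlapped another in the 3 windows. GC content was 62% for JUN, 70.8% for JUNB and 74.8% for JUND, against a median of 58% over all windows. A match describes the letters and does not show that a factor binds there.

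Depth was 26633780 to 38225538 recovered reads per library in the 30 min experiment and 11956652 to 13691014 in the 2 h experiment. No replicate pair was identical. The replicate 1 libraries of the 30 min experiment stood apart, with a chi-square per degree of freedom of 51.1 to 61.1 against the other libraries of their group, where those others differed by 15.3 to 21.7. The labels do not say whether the replicates were separate cultures, so every p-value below measures only the spread between these libraries. Of 16 markers of pigment epithelium and epithelial lines, 8 had a mean of at least 1 RPKM: BEST1, RDH5, OTX2, PMEL, KRT8, KRT18, VIM and CDH2. RPE65, RLBP1, TTR, MITF, TYR, TYRP1, SERPINF1 and TJP1 did not. Most deposited values were divided by the genomic span, introns included, so a mean under 1 RPKM does not show that a long gene was silent. The markers summed to 599 to 1149 RPKM in DMSO, 633 to 1111 after 30 min of merbarone, 836 to 839 in untreated cells and 771 to 786 after 2 h. VIM made most of these sums, with means of 884, 864, 732 and 666 RPKM in the same order. Between the controls, BEST1 had a mean of 2.58 RPKM in DMSO and 18.8 in untreated cells, and KRT18 17.0 and 59.5. These differences were not tested. None of the immune, endothelial, blood, neural or hepatic markers reached a mean of 1 RPKM. CD3E, CDH5, HBB, HBA1 and HBA2 were listed at 0 in every library. The part of such markers in the results was not tested. These are bulk values, in which more cells making a transcript and more transcript per cell cannot be told apart.

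All 3 JUN genes were higher after 2 h of merbarone, and after 30 min JUN and JUNB were higher than in every DMSO library while JUND was not. By log2 fold change, JUNB had the largest estimate of the family at both times and JUND the smallest. The plot of levels by library shows every value behind the next paragraphs.

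**Figure D1:**
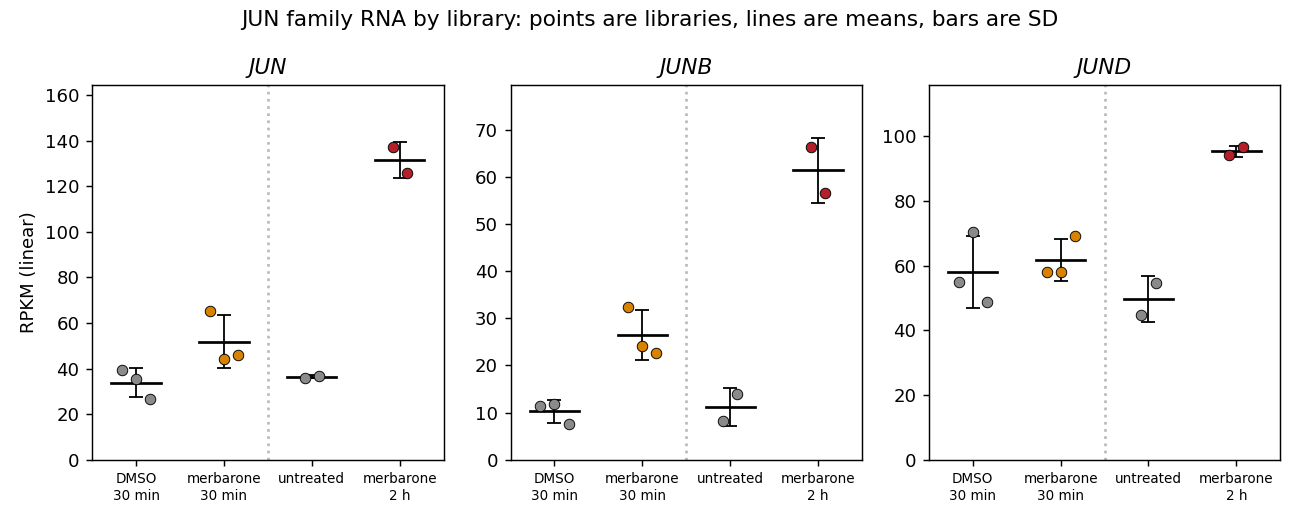
RPKM (linear scale, vertical axis from 0) of JUN, JUNB and JUND in each of the 10 libraries by group. Points are libraries, horizontal lines are group means and bars are SD, and the dotted line parts the experiments. The 2 h merbarone libraries lie above every other library for all 3 genes, from 126 RPKM for JUN, 56.5 for JUNB and 94.2 for JUND.

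JUN measured 39.3, 35.5 and 26.7 RPKM in the 3 DMSO libraries and 65.2, 44.1 and 46.0 RPKM in the 3 libraries after 30 min of merbarone. The lowest treated library lay above the highest control, by a small margin. The means were 33.8 ± 6.49 and 51.8 ± 11.7 RPKM (SD, n = 3), a ratio of 1.53. In the 2 h experiment JUN measured 36.0 and 36.9 RPKM in untreated cells and 137 and 126 RPKM after merbarone. Both treated libraries stood far above both controls, and the controls were almost equal. The means were 36.4 ± 0.645 and 131.5 ± 7.80 RPKM (SD, n = 2), a ratio of 3.61. Behind these values lay 1465 to 7293 reads per library.

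JUNB measured 11.4, 11.8 and 7.55 RPKM in DMSO and 32.5, 24.1 and 22.6 RPKM after 30 min of merbarone. The treated libraries lay well above the controls and the groups did not overlap. The means were 10.2 ± 2.34 and 26.4 ± 5.29 RPKM (SD, n = 3), a ratio of 2.58. JUNB measured 8.27 and 14.0 RPKM in untreated cells, and 66.2 and 56.5 RPKM after 2 h. Relative to their mean, the untreated libraries differed more for JUNB than for JUN or JUND, yet both lay far below the treated ones. The means were 11.1 ± 4.06 and 61.3 ± 6.88 RPKM (SD, n = 2), a ratio of 5.51. Its reads were the fewest of the family, 200 to 1983 per library.

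JUND measured 54.8, 70.6 and 48.9 RPKM in DMSO and 58.0, 58.1 and 69.3 RPKM after 30 min of merbarone. The groups overlapped, and the highest of the 6 values was a DMSO library. The means were 58.1 ± 11.2 and 61.8 ± 6.52 RPKM (SD, n = 3), a ratio of 1.06. JUND measured 44.7 and 54.8 RPKM in untreated cells and 94.2 and 96.6 RPKM after 2 h. The treated libraries agreed closely and lay above both controls. The means were 49.8 ± 7.15 and 95.4 ± 1.66 RPKM (SD, n = 2), a ratio of 1.92, from 1114 to 4545 reads per library.

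Treated libraries thus lay above all control libraries for 2 of the 3 genes at 30 min and for 3 of 3 at 2 h. Of all genes tested, 0.877% did so at 30 min (57 of 6500) and 22.5% at 2 h (1491 of 6620). With 2 libraries a group, non-overlap was common at 2 h and says little about a single gene there.

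At 30 min no JUN gene passed the threshold in limma without the replicate block. That test was run on log2(RPKM + 1) with adjustment over all 6500 genes and a threshold of 0.05, and it called 0.0154% of the genes. JUNB was higher by 1.29 ± 0.20 (SE) on the log2 scale (unadjusted p of 4.95e-04, adjusted p of 0.661). For JUN it was 0.60 ± 0.20 (SE), with an unadjusted p of 0.0219, and for JUND 0.10 ± 0.15 (SE), with an unadjusted p of 0.526. By size of log2 fold change JUNB ranked 6th, JUN 7th and JUND 105th among the genes tested, whose median was -0.01.

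Same-numbered libraries of the 30 min experiment deviated together from their group means, and with the replicate number as a block 0.123% of the genes were called (8 of 6500). JUNB was among them, at the same 1.29, now ± 0.10 (SE), and with an adjusted p of 0.0188. JUN did not pass (adjusted p of 0.377) and neither did JUND. Within the pairs, the JUNB difference was 1.43, 0.97 and 1.47 on the log2 scale for replicates 1, 2 and 3. JUN was higher in all 3 pairs too, by 0.72, 0.31 and 0.76. JUND had no common direction, with 0.08, -0.28 and 0.50. Leaving out DMSO replicate 3, which had the lowest JUND value, turned the JUND log2 fold change from 0.10 to -0.01.

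At 2 h all 3 genes rose and passed the threshold, where limma called 13.1% of 6620 genes, 5.98% as higher and 7.1% as lower. JUNB rose by 2.40 ± 0.20 (SE) on the log2 scale, with an adjusted p of 1.14e-04. JUN rose by 1.82 ± 0.11 (SE), with an adjusted p of 1.88e-05. JUND rose by 0.93 ± 0.13 (SE), with an adjusted p of 0.00248. JUNB ranked 5th, JUN 18th and JUND 73rd by size of log2 fold change, and the median of all genes was -0.05. A log2 fold change of at least 1 together with a call, which JUN and JUNB reached, was found for 0.967% of the genes (64 of 6620). Without a filter on low values 53 genes were called. JUN then passed with an adjusted p of 0.0450, while JUNB (0.0898) and JUND (0.100) did not.

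**Figure D2:**
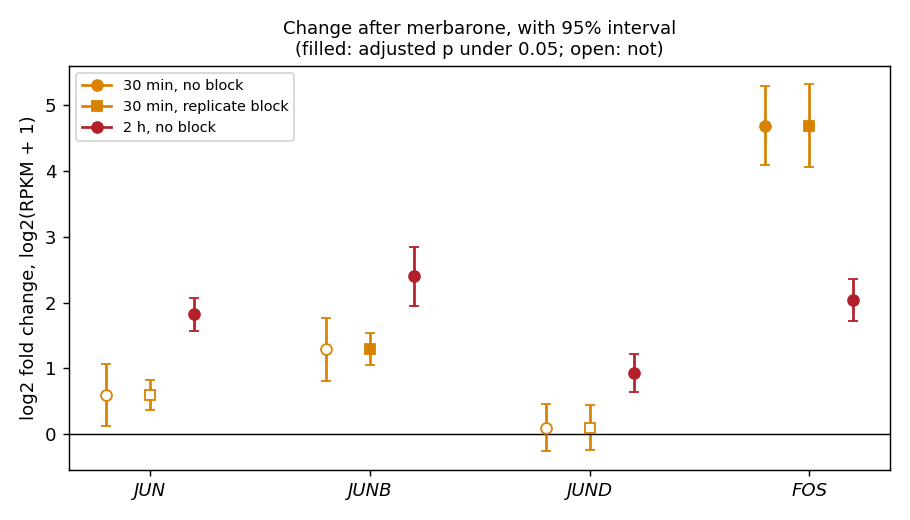
Log2 fold change after merbarone on the log2(RPKM + 1) scale for JUN, JUNB, JUND and their partner FOS, with 95% intervals from limma; circles are fits without the replicate block, squares the 30 min fit with it, filled symbols have an adjusted p under 0.05. JUNB at 30 min is open without the block and filled with it, and the 3 JUN genes are filled at 2 h, at 1.82, 2.40 and 0.93.

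The effect at 2 h exceeded that at 30 min by 1.23 ± 0.27 (SE) on the log2 scale for JUN, by 1.11 ± 0.34 for JUNB and by 0.83 ± 0.22 for JUND. In the contrast over all 10 libraries, which called 1.63% of 6558 genes, none of these differences passed, with adjusted p-values of 0.0617, 0.167 and 0.113. Their unadjusted p-values were 0.00122, 0.0102 and 0.00435. With the replicate block 19.1% of the genes were called and all 3 differences passed, with adjusted p-values of 0.00272, 0.0280 and 0.0307. With the block in the 30 min experiment only, where same-numbered libraries deviated together, the adjusted p-values were 0.00196, 0.0371 and 0.0415. Without the block, the JUN difference passed in 2 of the 10 fits that each left out 1 library, at 1.39 without DMSO replicate 3 (adjusted p of 0.0371) and 1.40 without merbarone 30 min replicate 1 (0.0141). In the other 8 it did not pass, with adjusted p-values of 0.0994 to 0.252. Without replicate 1 of both 30 min groups it was 1.29, with an adjusted p of 0.00887. Time, kind of control and experiment cannot be told apart in this contrast.

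The family's make-up was compared within libraries, which removes the scaling of each library. JUND was the most abundant member per length and JUNB the least in all 5 control libraries. In the 3 DMSO libraries the shares of summed JUN family RPKM were 37.3%, 30.1% and 32.1% for JUN, 10.8%, 10.01% and 9.09% for JUNB, and 52.0%, 59.9% and 58.8% for JUND. In the 2 untreated libraries JUN held 40.4% and 34.9%, JUNB 9.30% and 13.2%, and JUND 50.3% and 51.9%. The JUND share lay above both untreated libraries in all 3 DMSO libraries, while the shares of JUN and JUNB overlapped between the controls, and no test was made across the experiments.

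After 30 min of merbarone JUNB held 20.8%, 19.1% and 16.4%, above all DMSO libraries, and JUND held 37.2%, 46.0% and 50.3%, below all of them. JUN held 41.9%, 34.9% and 33.3%, which overlapped the DMSO shares. The mean JUNB share was 8.83 percentage points higher and the JUND share 12.4 points lower, each with a two-sided exact permutation p of 0.1, the smallest that 3 libraries against 3 allow. The JUN share differed by 3.55 points (exact permutation p of 0.4). JUN lay above JUND in 1 of the 3 treated libraries, replicate 1, and below it in the others. Neighbours in the order at 30 min, JUND at 61.8 ± 6.52 and JUN at 51.8 ± 11.7 RPKM (SD, n = 3), therefore did not part beyond their spread.

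After 2 h of merbarone JUN held 46.1% and 45.2%, JUND 31.7% and 34.6%, and JUNB 22.3% and 20.2%. JUN was then the most abundant member in both libraries, and the order of the controls, JUND above JUN, was reversed. The mean shares differed from untreated cells by 7.94 points for JUN, 9.97 for JUNB and -17.9 for JUND, with the groups apart for each. The smallest exact permutation p for 2 libraries against 2 is 0.333, which each of these had, so the design cannot test them. Over the 12 tests of shares and of ratios between members, the adjusted p-values were 0.3 to 0.4. The summed level of the family was 102.1 ± 17.6 RPKM in DMSO, 140.0 ± 14.7 after 30 min (SD, n = 3), 97.3 ± 11.9 in untreated cells and 288.3 ± 13.0 after 2 h (SD, n = 2).

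**Figure D3:**
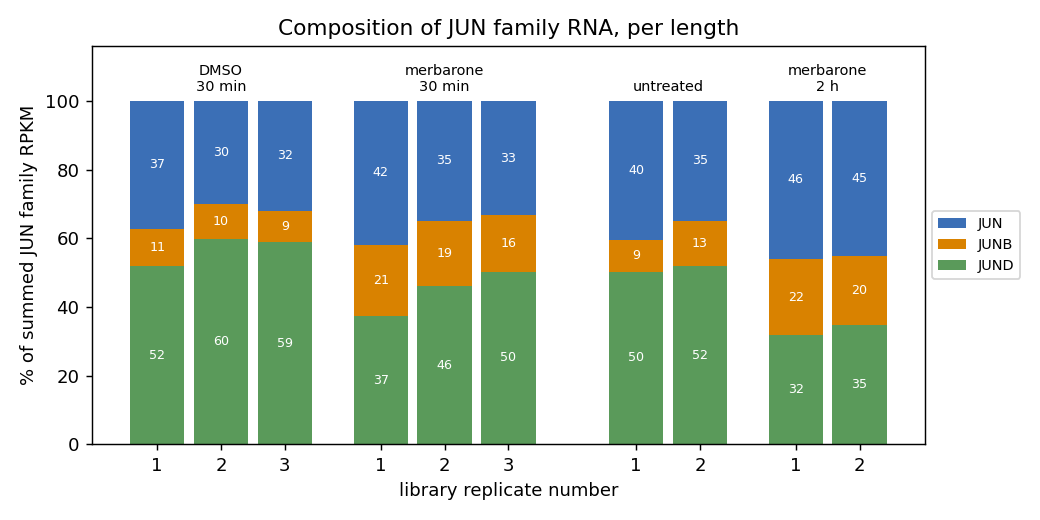
Share of the summed JUN family RPKM held by JUN (blue), JUNB (orange) and JUND (green) in each of the 10 libraries, numbered by replicate within group. JUND holds 50.3% to 59.9% in the 5 control libraries and 31.7% to 34.6% in the 2 h merbarone libraries, where JUN is the largest share.

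JUNB lies inside another gene of the tables. HOOK2, a linker of vesicles to microtubules encoded on the opposite strand, spans chr19:12873817-12983554 in the annotation, and the length behind its deposited values, 109738 bp, was that whole span. The library kit was stranded, but strand-specific counting is not given in the sources used here. The values of both JUNB and HOOK2 are uncertain to that extent. In RPM (recovered reads scaled to a common library depth, with no division by length) HOOK2 measured 200.2 ± 3.30 in DMSO and 227.2 ± 5.42 after 30 min of merbarone (SD, n = 3), with 201.4 ± 18.1 in untreated cells and 277.4 ± 5.87 after 2 h (SD, n = 2). Its increase of 27.1 RPM at 30 min stood beside 29.4 for JUNB, and its increase of 76.0 at 2 h beside 91.2 for JUNB. The HOOK2 log2 fold change was 0.12 at 30 min, not called, and 0.32 at 2 h with an adjusted p of 0.0306. The 2 h call was lost without either merbarone library (adjusted p of 0.247 without replicate 1 and 0.147 without replicate 2). Whether the same reads were counted for both genes was not tested. No other gene of the tables overlaps JUN or JUND.

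**Figure D4:**
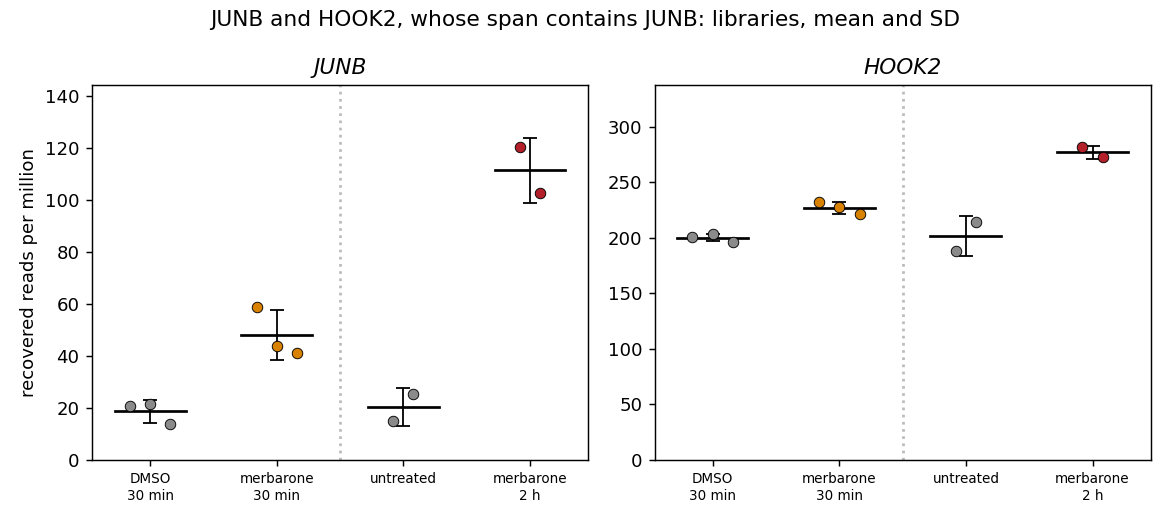
Recovered reads scaled to library depth (RPM, linear scale from 0) of JUNB and of HOOK2, whose annotated span contains JUNB, by group; points are libraries, lines means and bars SD. Both genes are higher after merbarone, JUNB by 29.4 and 91.2 and HOOK2 by 27.1 and 76.0 RPM at 30 min and 2 h.

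FOS, the main partner of JUN proteins, was at 0.489, 0.839 and 1.65 RPKM in DMSO and at 62.1, 48.7 and 38.9 RPKM after 30 min. It was at 0.521 and 0.919 RPKM in untreated cells and at 7.01 and 5.17 RPKM after 2 h. In RPKM, FOS thus went from the lowest to near the JUN level at 30 min, and at 2 h it lay below each JUN gene. The length behind the FOS values, 3457 bp, was near its whole span of 3405 bp, introns included. Its RPKM is therefore not strictly comparable, per length, with the RPKM of the JUN genes. FOS was called at both times (log2 fold changes of 4.69 and 2.04, adjusted p of 0.00549 and 4.27e-05). Its control means lay under 1 RPKM in both experiments, so FOS entered the tests only through its treated libraries. It had to differ, and these calls are not support. The FOS call at 30 min was lost without DMSO replicate 2 (adjusted p of 0.0734) or merbarone replicate 2 (0.0906), and with no filter on low values (0.0669), which also took away its 2 h call (0.0780). The FOS effect was lower at 2 h than at 30 min, by -2.65 ± 0.36 (SE) on the log2 scale with an adjusted p of 0.00731, while the JUN effects had point estimates on the other side. FOS entered this fit too only through its merbarone libraries, so the call on its difference is not support. That difference lost its call without untreated replicate 2 (0.0636) or merbarone 2 h replicate 2 (0.0599), with a pseudocount of 0.1 (0.0654) and with voom on recovered reads (0.142).

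Among 19 genes encoding bZIP proteins of the FOS, ATF, BATF, MAF and CREB groups, 7 were tested at 30 min and 8 at 2 h, the others being below a mean of 1 RPKM. FOS was the 1 gene called at 30 min, and the list's median log2 fold change was 0.02 against -0.01 for all genes. With the replicate block FOSB was called as well (log2 fold change of 3.31, adjusted p of 0.0188). At 2 h 6 of the 8 were called higher, against 5.98% of all genes, with a median of 0.54 against -0.05 for all genes. FOSB, a close relative of FOS, rose from 0.189 ± 0.046 to 10.9 ± 0.473 RPKM (SD, n = 2), by 3.33 on the log2 scale. ATF3, a stress-induced partner that often represses, rose from 0.108 ± 0.020 to 2.69 ± 0.642 RPKM (SD, n = 2), by 1.73 on the log2 scale. FOS, FOSB and ATF3 had control means under 1 RPKM and entered the test only through their treated libraries, so they had to differ. Neither their calls, with or without the block, nor the list's count or median is support.

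The other genes called higher encode small MAF proteins, which lack a transactivation domain. MAFF rose by 0.58 and MAFK by 0.49 on the log2 scale, with adjusted p-values of 0.0114 and 0.0335. MAFG, outside the rule for naming and named after its value was seen, rose by 0.38 (adjusted p of 0.0404). The MAFK call was lost without merbarone 2 h replicate 2 (adjusted p of 0.153). In the fit of all 10 libraries both MAFF (0.0628) and MAFK (0.0925) lost their calls, as they did with no filter on low values (0.151 and 0.189). FOSB, MAFF, MAFG and MAFK each overlap 1 other gene of the tables, and their values are uncertain. FOSL1 and FOSL2, also named after their values were seen, are the FOS relatives with the highest resting levels. FOSL1 measured 29.6 ± 1.58 RPKM untreated and 29.0 ± 1.79 after 2 h (SD, n = 2), and FOSL2 measured 7.35 ± 0.434 and 8.45 ± 0.101. Neither passed, with adjusted p-values of 0.874 and 0.220.

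Of 26 genes for kinases, transcription factors and ubiquitin ligases that act on JUN genes or proteins, 13 were tested at each time. At 30 min limma called 0, with 0 at an unadjusted p under 0.05 and 0 by voom on recovered reads. Of all 6500 genes limma called 1, and 24 had an unadjusted p under 0.05, so a 0 says little about the list. The list's median log2 fold change was -0.03. At 2 h limma called 0 higher and 1 lower of the 13, near the 7.1% of all genes called lower. An unadjusted p under 0.05 was found for 3 of the 13 and for 2070 of all 6620 genes, and the median was -0.11 against -0.05. SRF, serum response factor, fell from 12.4 ± 1.06 to 8.96 ± 0.048 RPKM (SD, n = 2), by 0.42 on the log2 scale with an adjusted p of 0.0266. That call was lost without either merbarone library (adjusted p of 0.187 without replicate 1 and 0.178 without replicate 2), in the fit of all 10 libraries (0.334) and with no filter on low values (0.120). MAPK9, which encodes the JNK2 kinase, measured 1.15 ± 0.082 and 1.09 ± 0.043 RPKM, and MAPK8 (JNK1) was below the filter at 0.228 ± 0.045 and 0.225 ± 0.015 RPKM (SD, n = 2). Both kinases were named after their values were seen, and levels of RNA do not measure kinase activity. Most lengths behind the deposited values were genomic spans, introns included, so a value below the filter need not mean few reads. MAPK8 had up to 1316 reads in a library.

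Of 26 textbook AP-1 target genes, 17 were tested at 30 min and limma called 0, as did voom on recovered reads, with 0 at an unadjusted p under 0.05 in either. Of all 6500 genes limma called 1, and 24 had an unadjusted p under 0.05, so a 0 says little about these targets. With the replicate block 0 of the targets were called and 2 had an unadjusted p under 0.05, against 8 and 208 of all 6500 genes. At 2 h 18 were tested, of which 7 were called higher and 1 lower, against 5.98% and 7.1% of all genes tested. A log2 fold change above 0 was found for 10 of the 18 and for 39.7% of all genes. The median was 0.07, against -0.05 for all genes. HBEGF, a ligand of the EGF receptor, rose from 1.15 ± 0.074 to 4.29 ± 0.965 RPKM (SD, n = 2), by 1.29 on the log2 scale. FN1, which encodes fibronectin, rose from 76.4 ± 1.96 to 168.6 ± 13.9 RPKM, by 1.13. VEGFA, the angiogenic growth factor, rose from 10.5 ± 0.557 to 23.2 ± 0.653 RPKM, by 1.07. CXCL8, a neutrophil chemokine, rose from 0.572 ± 0.479 to 2.51 ± 0.111 RPKM, by 1.19 on the log2 scale. It rested on few reads, between 10 and 114 in each of the 4 libraries, and its control mean lay under 1 RPKM. CXCL8 entered the test only through its treated libraries, so it had to differ, and its place among the 7 called higher is not support. The adjusted p-values from limma were 1.85e-04 for HBEGF, 4.12e-04 for FN1 and 2.17e-04 for VEGFA, and the 0.00249 of CXCL8 is not support.

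CCL2 (0.96) and HMOX1 (0.50) of that list also rose, and SPP1, which encodes osteopontin, fell by 0.29 with an adjusted p of 0.0393. These 3 were named after their values were seen, and SPP1 was not called by voom on recovered reads. The collagenase and stromelysin genes MMP1, MMP3, MMP10 and MMP13, classical AP-1 targets, were listed at or near 0 in every group. CCND1, which encodes cyclin D1, measured 91.6 ± 6.31 and 78.9 ± 2.86 RPKM (SD, n = 2) and was not called. Whether a target gene's rise depends on JUN proteins was not measured, as the libraries hold RNA levels only.

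**Figure D5:**
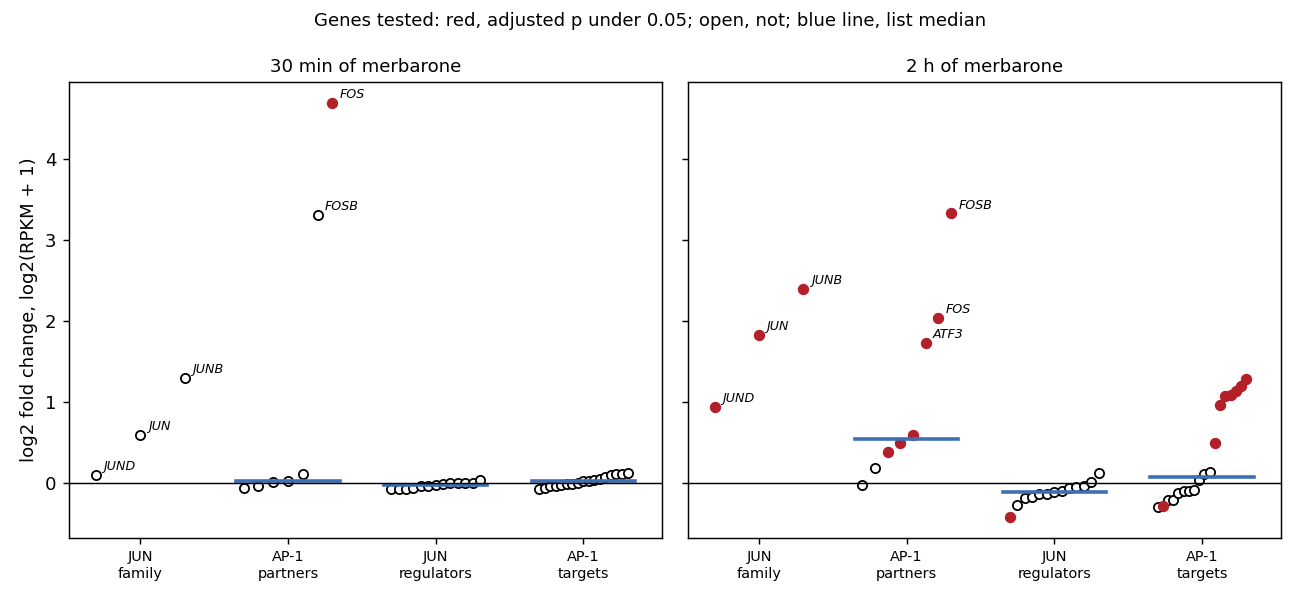
Log2 fold changes on the log2(RPKM + 1) scale at 30 min (left) and 2 h (right) for the JUN family and the tested genes of the lists of AP-1 partners, JUN regulators and AP-1 targets. Each point is a gene, red points have an adjusted p under 0.05 in limma without the block, and blue lines are list medians, which at 2 h are 0.54, -0.11 and 0.07.

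Genes with the most similar course were found by the root-mean-square difference of log2(RPKM + 1), after each library was set against the mean of its experiment's controls, over 10 libraries and 6558 genes. The JUN family was closest between JUN and JUNB (0.488) and between JUN and JUND (0.530), and farthest between JUNB and JUND (0.951). For JUN the nearest genes were PLK3 (0.259), RHOB (0.284), KLF2 (0.295), IER3 (0.299) and BHLHE40 (0.320), against a median of 0.926 over all genes. These 5 genes had log2 fold changes of 0.12 to 0.36 at 30 min, below the 0.60 of JUN, and 1.75 to 2.38 at 2 h, around the 1.82 of JUN. None was called at 30 min without the block, where 0.0154% of all genes were, and each was called at 2 h, where 13.1% were. They were picked for likeness to JUN over these same libraries, so their calls follow in part from the picking and are not support.

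For JUNB the nearest genes were DUSP1 (0.432), then JUN (0.488), KLF2 (0.525), PLK3 (0.596) and RHOB (0.661), with a median of 1.33 over all genes. DUSP1, a phosphatase of MAP kinases and an immediate-early gene, had log2 fold changes of 1.49 at 30 min and 1.91 at 2 h, against 1.29 and 2.40 for JUNB. The other 4 were all lower than JUNB at 30 min. For JUND the nearest genes were FOXS1 (0.125), VEGFA (0.132), TSC22D3 (0.145), VASN (0.146) and MEX3B (0.150), with a median of 0.474. These 5 rose by 0.83 to 1.07 on the log2 scale at 2 h, and the 4 tested at 30 min had values of -0.01 to 0.06 there. All 10 libraries are shared by such distances, which describe likeness and carry no test. The fold changes of genes picked in this way follow in part from the picking.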

How the data were processed

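Per the file headers, each of the 10 deposited tables lists Ensembl genes with 1 RPKM value, not log-transformed. The submitters' processing notes name Bowtie 1.2.0 and the builds hg19 and GRCh37; the read counter and the annotation are not given in the sources used here. Per the labels' protocols, a stranded mRNA kit and 150 ng of input RNA were used for each library. Of the 20327 identifiers, 19637 matched a table of gene names.

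Reads were recovered from the RPKM steps: all 17680 genes above 0 came out whole within a tolerance of 0.02. For 74.9% of 17234 genes the implied length lay within 1% of the genomic span in the annotation, introns included. A filter on RPKM therefore leaves out genes with long introns at read numbers that would keep a short gene.

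Tests were run with limma 3.58.1 (R 4.3.3, lmFit, eBayes with trend) on log2(RPKM + 1), two-sided, for genes averaging 1 RPKM or more in the fitted libraries, with Benjamini-Hochberg adjustment over all genes tested and a threshold of 0.05. Fold changes on this scale understate those of low genes. The limma step was tested on simulated reads. Each experiment was fitted with its own control, and effects were compared in 1 contrast over 10 libraries. Shares were compared by exact permutation with SciPy 1.17.1. Python 3.11.15 was used.

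The labels give replicate numbers but no pairing, and the pairing by number was drawn from these data. In each of 3 same-numbered pairs at 30 min the deviations from the group means were correlated (0.925, 0.646 and 0.605). Among different numbers, DMSO 2 with merbarone 3 (0.365) and DMSO 3 with merbarone 2 (0.139) were also positive. The other combinations were negative, from -0.716 to -0.499. At 2 h there were 2 same-numbered pairs, each with a correlation of 0.30.

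Besides JUN, JUNB, JUND and FOS, the rule for names took from each list the genes past the threshold, at most the 5 with the largest absolute log2 fold change per comparison, and the 5 genes nearest to each member. Values of some genes on the lists are not reported here. The members and lists were chosen with earlier results of these data known. Alternatives were another pseudocount, filter, scaling, variance trend and GC correction, the block, voom on recovered reads, 1 fit of all libraries and leaving out libraries.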

Additional observations from a re-analysis of the deposited data

Results flagged for a closer look

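For FOS and for 9 genes that the lists or the likeness to a JUN gene brought in, merbarone had unequal effects in the 2 experiments by limma's contrast over all 10 libraries, in which time, kind of control and experiment cannot be told apart. The FOS effect was lower at 2 h, by -2.65 ± 0.36 (SE) on the log2 scale (adjusted p of 0.00731). FOS had control means under 1 RPKM and entered this fit only through its merbarone libraries, so its call is not support. Among the genes nearest to JUN, the effect was higher at 2 h by 2.01 for KLF2 (adjusted p of 0.00180), 1.93 for RHOB (0.0170), 1.79 for BHLHE40 (3.27e-04), 1.77 for PLK3 (0.00160) and 1.64 for IER3 (0.0107). Among those nearest to JUND it was higher by 1.06 for VEGFA (0.00279), 1.01 for TSC22D3 (0.00171) and 0.85 for MEX3B (0.0254). For HBEGF, of the AP-1 targets, it was higher by 1.18 (0.0353). The genes nearest to JUN or JUND were picked for likeness over these same 10 libraries. Their differences and adjusted p-values follow in part from that picking and are not support. Over all 23 alternatives the difference was 1.91 to 2.17 for KLF2, 1.72 to 1.87 for BHLHE40 and 1.65 to 1.90 for PLK3. Leaving out either 2 h merbarone library took away the call for RHOB (adjusted p of 0.101 and 0.0753), IER3 (0.0603 and 0.0708), MEX3B (0.101 and 0.138) and HBEGF (0.0544 and 0.161), and leaving out either untreated library did so for RHOB (0.0660 and 0.0789), MEX3B (0.0624 and 0.112) and HBEGF (0.0795 and 0.133). In the 30 min experiment, leaving out merbarone replicate 2 or 3 did so for MEX3B (0.0595 and 0.0629) and HBEGF (0.0832 and 0.0811), and leaving out DMSO replicate 2 for HBEGF (0.0523). For FOS, leaving out untreated replicate 2 (0.0636) or merbarone 2 h replicate 2 (0.0599) did so. Other settings also took calls away: a pseudocount of 0.1 for FOS (0.0654) and HBEGF (0.0754), voom on recovered reads for FOS (0.142), HBEGF (0.117) and MEX3B (0.0796), and, for HBEGF, no filter on low values (0.0626) and quantile normalization (0.0532).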

How the results depend on the processing

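JUN kept its direction and its call at 2 h under all 16 alternatives, JUNB and JUND under 15, the exception being no filter on low values (2.40 and 0.93, adjusted p of 0.0898 and 0.100); the cause was not tested. With 1 library left out the 2 h log2 fold changes were 1.76 to 1.88 for JUN, 2.05 to 2.75 for JUNB and 0.79 to 1.08 for JUND. At 30 min, leaving out libraries gave 0.42 to 0.71 for JUN and 1.11 to 1.40 for JUNB, and JUND ranged from -0.014 (without DMSO replicate 3) to 0.25.

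The replicate block, alone, with GC correction and with voom, called JUNB at 30 min (1.29, 1.32 and 1.37). Those same 3 settings called the difference between effects for JUN (1.23, 1.24 and 1.24), JUNB (1.11, 1.15 and 1.12) and JUND (0.83, 0.91 and 0.84). GC correction alone did so for JUN (1.24, adjusted p of 0.0499) and JUND (0.91, 0.00462). The block in the 30 min experiment only, an alternative chosen after seeing the data like those without replicate 1 of both 30 min groups, also called JUN (1.23), JUNB (1.11) and JUND (0.83). With libraries left out the JUN difference was 1.11 to 1.40.

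At 30 min, where the reported fit called 1 gene, 0 were called with no filter, 2 each with a filter of 5 RPKM, median scaling, quantile normalization and all 10 libraries in 1 fit, 8 with the block or the block with GC correction, 9 with voom and the block, and 0 to 2 with libraries left out. At 2 h, against 866 (45.7% higher), 53 were called with no filter (90.6% higher), 397 with a filter of 5 RPKM (33% higher), 2129 with the block, 1888 with GC correction, 2357 with both, 2135 with voom and the block, and 328 to 2464 with libraries left out (328 and 398 without merbarone replicate 1 and 2, 2464 and 1311 without untreated replicate 1 and 2). The 2 h pairs number 2 and the blocked fit had 1 residual degree of freedom. For the difference between effects, against 107, the counts were 361 with no filter, 36 with a filter of 5 RPKM, 1255 with the block, 179 with GC correction, 1835 with both, 60 with voom, 1308 with voom and the block, 665 with the block at 30 min only and 38 to 114 with libraries left out. Of the 2 h calls, 52.4% were higher under median scaling and 53.8% under quantile normalization.

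With no filter, AP-1 partners numbered 0 higher at 30 min and 1 at 2 h, JUN regulators 0 lower at 2 h, and AP-1 targets 1 higher and 0 lower at 2 h. Of all genes, 0 of 17355 were then called at 30 min and 53 of 16810 at 2 h. With the block there were 2 AP-1 partners higher at 30 min, where 0.108% of all genes were called higher. They were FOS and FOSB, which entered the test only through their treated libraries, so the count is not support. At 2 h the block gave 3 of 13 JUN regulators lower and 3 of 18 AP-1 targets lower. It then called 2129 of all 6620 genes, 38.2% of them higher, so these counts say little about the lists. The block changed no other call on the JUN genes. The 2 h libraries held fewer reads than the 30 min libraries, and the effect of depth on the calls was not tested.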
